A study of Mus musculus with 8 samples.

Results

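The creatine cycle genes are 7 genes that make, take up and turn over creatine. They were chosen by name as Gatm, Gamt, Slc6a8, Ckb, Ckmt1, Ckmt2 and Alpl, among 21154 genes with a probe and a symbol. Every probe whose RefSeq accession maps to one of these symbols was taken, which gave 9 of 55681 probes, and all 9 passed the filter on dim spots and were tested. Ckb and Gamt have 2 probes each and the other genes have 1. The values came from brown adipose tissue (BAT) of male C57BL/6NCrSlc mice with no transgene named in their labels, operated on at 11 weeks of age and housed at 23 °C on normal chow under a 12 h light and 12 h dark cycle. One group had thoracic aortic constriction (TAC), which narrows the aorta and loads the left ventricle with pressure, and the other had sham surgery (Sham). Each group had 4 mice, with 1 one-colour Agilent array of total RNA per mouse. BAT was collected at 13 weeks of age. For the interval since the operation the sample labels disagree, with 2 weeks given for the source and the treatment and 4 weeks in the free description. The question for these genes was whether the RNAs of the creatine cycle differed in BAT after TAC, and whether a difference came with the RNAs of skeletal muscle, a tissue rich in creatine kinases that lies next to BAT.

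Creatine is built in a pair of steps, the first by Gatm, which joins arginine and glycine, and the next by Gamt, which methylates the product. Slc6a8 carries creatine across the cell membrane. Creatine kinases move a phosphate from ATP to creatine and back, with Ckb in the cytosol, Ckmt1 in mitochondria of many tissues and Ckmt2 in mitochondria of striated muscle. Alpl encodes the tissue-nonspecific alkaline phosphatase. In brown adipocytes phosphocreatine can be broken down without useful work, so that ATP is spent and heat is released, and Ckb and this phosphatase are known as enzymes of that futile cycle.

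All levels are log2 intensities relative to the 75th percentile of their array, so that 0 is the brightness of a spot at that percentile and a step of 1 is a doubling. Scanner values were used for Sham replicates 2, 3 and 4 and for all TAC replicates, 7 arrays in total. Sham replicate 1 was read from the authors' value table of all 8 arrays. Levels in that table are shifted against the scanner values, so they are to be compared within it. For instance, Ckb on Sham replicate 2 was 1.70 in the scanner values and 1.91 in the value table. The 75th percentile of the scanner intensities lay between 453.6 and 604.5 units, and 54.5% to 64.3% of the spots were well above background. The 3 Sham arrays lay in row 1 and the 4 TAC arrays in row 2 of 1 slide, so place on the slide and group cannot be told apart. TAC replicate 1 lay apart from the others, at 89.6 on the first principal component (39.3% of the variance), where the other TAC arrays lay between -8.58 and 3.58 and the Sham arrays between -32.6 and -20.3. Ucp1, which defines brown adipocytes, was well above background on all 7 arrays, at 9.40 to 9.70 in Sham and 8.37 to 9.22 in TAC. Across 33364 probes tested, limma called 0 at an adjusted p under 0.05, with 1462 higher and 2814 lower after TAC at an unadjusted p under 0.05. The methods' t-test also called 0 after adjustment, with 1602 higher and 2587 lower before it. In bulk tissue fewer cells of a type and less RNA per cell cannot be told apart.

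Of the 7 genes, Ckb stood out as higher after TAC, by 2.56-fold (95% confidence interval 1.37 to 4.77). Gatm, the dimmest member, had the largest difference in the lower direction, at -0.71 on the log2 scale (SE 0.45). Its 95% confidence interval included 0 on the 7 arrays and no longer did so without TAC replicate 1. Another background correction gave -0.23 for Gatm. On the 7 arrays Ckmt2 differed by more than Gatm in size, at 0.86 (SE 0.64). Over the 8 arrays of the value table the order was reversed, with Ckmt2 at 0.45 and Gatm at -0.87. Ckmt2 and Slc6a8 were the members whose levels followed the muscle actin Acta1. Gamt, Ckmt1 and Alpl differed between the groups by less than 0.1 on the log2 scale. None of the 7 passed an adjusted p of 0.05 in limma, where 0% of all probes did. In limma 1 of 7 had an unadjusted p under 0.05 in the higher direction, against 4.38% of all probes, and 0 of 7 in the lower direction, against 8.43%. Ckb was also the single member whose groups did not overlap, with every TAC array above every Sham array, as held for 5.59% of the probes with a value on all 7 arrays. The median difference over the 7 genes was -0.018, beside -0.032 over all probes tested.

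**Figure D1:**
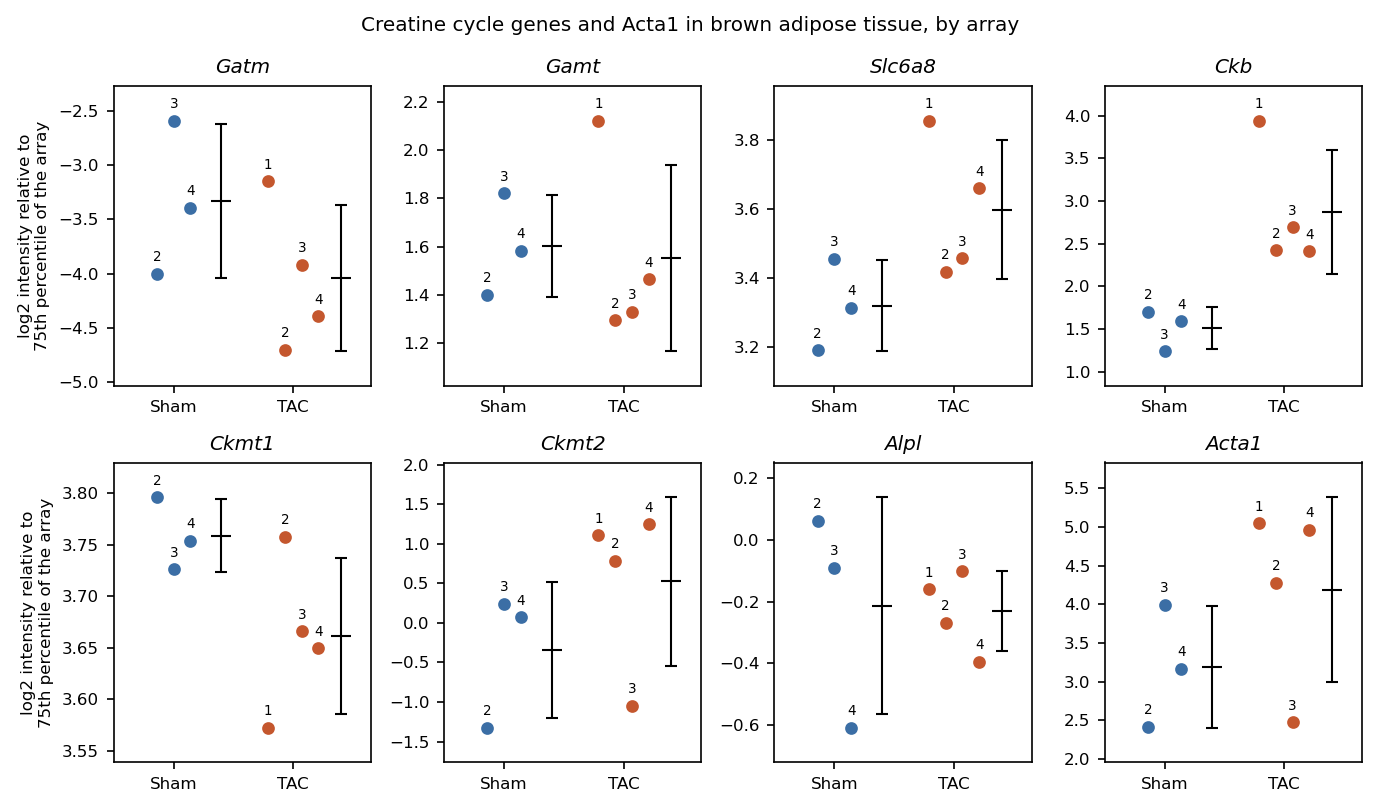
Log2 intensity of the 7 creatine cycle genes and of Acta1 relative to the 75th percentile of the array, for Sham replicates 2 to 4 (blue) and TAC replicates 1 to 4 (orange), with the replicate number above each point, the group mean as a black dash and the SD as its bar; each panel has its own axis. Ckb lies at 1.24 to 1.70 in Sham and 2.41 to 3.94 in TAC, whereas the groups overlap in the other 7 panels.

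The enzyme of the first step, Gatm, was dim. Its level was -4.002, -2.59 and -3.40 in Sham replicates 2 to 4 and -3.15, -4.70, -3.92 and -4.39 in TAC replicates 1 to 4. On 6 of 7 arrays the spot was well above background, and on TAC replicate 2, its lowest, it was not. The groups overlapped through TAC replicate 1, which lay above Sham replicates 2 and 4, and through TAC replicate 3, which lay just above Sham replicate 2. The TAC minus Sham difference was -0.71 (SE 0.45, 95% confidence interval -1.77 to 0.34, adjusted p 0.524 in limma). In the value table Sham replicate 1 lay at -2.55, near Sham replicate 3 at -2.40, and the difference over 8 arrays was -0.87 (adjusted p 0.377). Single arrays moved the estimate for Gatm by more than 1.5 times. It was -0.34 without Sham replicate 3 and -1.05 at the other end of the arrays left out in turn, and normexp background correction, which treats dim spots differently, gave -0.23. Without TAC replicate 1 it was -1.01 (95% confidence interval -1.95 to -0.068, adjusted p 0.360), and in the value table without that array -1.16 (95% confidence interval -2.01 to -0.31, adjusted p 0.294). Array weights gave -0.99 (95% confidence interval -1.83 to -0.14, adjusted p 0.271). These intervals lay below 0, and the adjusted p missed the threshold in all of them.

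Gamt, the methyltransferase of the next step, stood at 1.40, 1.82 and 1.58 in Sham replicates 2 to 4 and at 2.12, 1.30, 1.33 and 1.47 in TAC replicates 1 to 4. TAC replicate 1 was the highest array and the remaining TAC arrays lay within or just below the range of Sham, so the groups overlapped. The difference was -0.048 (SE 0.22, 95% confidence interval -0.57 to 0.47, adjusted p 0.940), which leaves room for changes of up to about that size in either direction. The dimmer Gamt probe gave 0.00041 (SE 0.20), and the probes followed each other across arrays with r = 0.99. The sign of so small a difference was not stable: it was 0.013 over the 8 arrays of the value table and -0.24 without TAC replicate 1.

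Uptake of creatine is the task of Slc6a8, which lay at 3.19, 3.45 and 3.31 in Sham replicates 2 to 4 and at 3.86, 3.42, 3.46 and 3.66 in TAC replicates 1 to 4. TAC replicates 1 and 4 were above every Sham array, and TAC replicates 2 and 3 were level with Sham replicate 3. The difference was 0.28 (SE 0.13, 95% confidence interval -0.036 to 0.59, adjusted p 0.438), or 1.21-fold. Every alternative kept it positive, between 0.15 and 0.35. In the value table Sham replicate 1 stood at 3.63, within the range of the TAC arrays, 3.60 to 4.05.

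Ckb, the cytosolic kinase, was at 1.70, 1.24 and 1.59 in Sham replicates 2 to 4 and at 3.94, 2.42, 2.69 and 2.41 in TAC replicates 1 to 4. All 4 TAC arrays were above all 3 Sham arrays, and TAC replicate 1 was far above the remaining TAC arrays. Relative to the Sham mean, Ckb was 5.38-fold on TAC replicate 1 and between 1.86-fold and 2.27-fold on TAC replicates 2 to 4. The difference was 1.35 (SE 0.38, 95% confidence interval 0.46 to 2.25, adjusted p 0.272 in limma), the 95th largest positive difference among 33364 probes. The dimmer Ckb probe gave 1.31 (SE 0.40, adjusted p 0.292), with groups that did not overlap either, and it followed the brighter one with r = 0.998 and a gap of 0.76 to 0.88 on each array.

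The higher mean of Ckb after TAC did not rest on TAC replicate 1 alone. Without it the difference was 0.997 (SE 0.15, adjusted p 0.181), or 2.00-fold, and over all arrays left out in turn it lay between 0.997 and 1.51. Sham replicate 1, which entered none of these fits, had a Ckb value of 2.03 in the value table. This was the highest of the Sham arrays there, which lay at 1.91, 1.43 and 1.79 for replicates 2 to 4, and it was still under the lowest TAC array at 2.58. Over 8 arrays the groups again did not overlap, as held for 3.53% of probes, and the difference was 1.26 (SE 0.34, adjusted p 0.230). In every alternative that was run Ckb was higher after TAC and missed the adjusted threshold, with adjusted p between 0.122 and 0.658.

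Ckmt1, the mitochondrial kinase of many tissues, was the steadiest member. It read 3.80, 3.73 and 3.75 in Sham replicates 2 to 4 and 3.57, 3.76, 3.67 and 3.65 in TAC replicates 1 to 4. TAC replicate 2 lay within the range of Sham and the other TAC arrays lay below it. The difference was -0.097 (SE 0.080, 95% confidence interval -0.29 to 0.092, adjusted p 0.625), so its interval reached no further down than 0.82-fold. The sign was negative in every alternative that was run.

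Ckmt2, the mitochondrial kinase of striated muscle, ranged widely within both groups. It was at -1.33, 0.24 and 0.068 in Sham replicates 2 to 4 and at 1.11, 0.79, -1.05 and 1.25 in TAC replicates 1 to 4. TAC replicates 1, 2 and 4 were high, whereas TAC replicate 3 lay near the lowest Sham array, so the groups overlapped. The difference was 0.86 (SE 0.64, 95% confidence interval -0.64 to 2.37, adjusted p 0.585). Single arrays moved it by more than 1.5 times, to 0.37 (95% confidence interval -1.25 to 1.99) without Sham replicate 2 and to 1.39 (95% confidence interval 0.36 to 2.41, adjusted p 0.350) without TAC replicate 3. The value table added a Sham replicate 1 at 1.43, the highest Ckmt2 value of all 8 arrays, and the difference there was 0.45 (adjusted p 0.775).

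Alpl, the phosphatase, stood at 0.060, -0.091 and -0.61 in Sham replicates 2 to 4 and at -0.16, -0.27, -0.10 and -0.39 in TAC replicates 1 to 4. The TAC arrays all lay inside the range of Sham. The difference was -0.018 (SE 0.17, 95% confidence interval -0.42 to 0.38, adjusted p 0.972), and its sign changed with single arrays, from -0.22 to 0.12 over the arrays left out in turn.

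**Figure D2:**
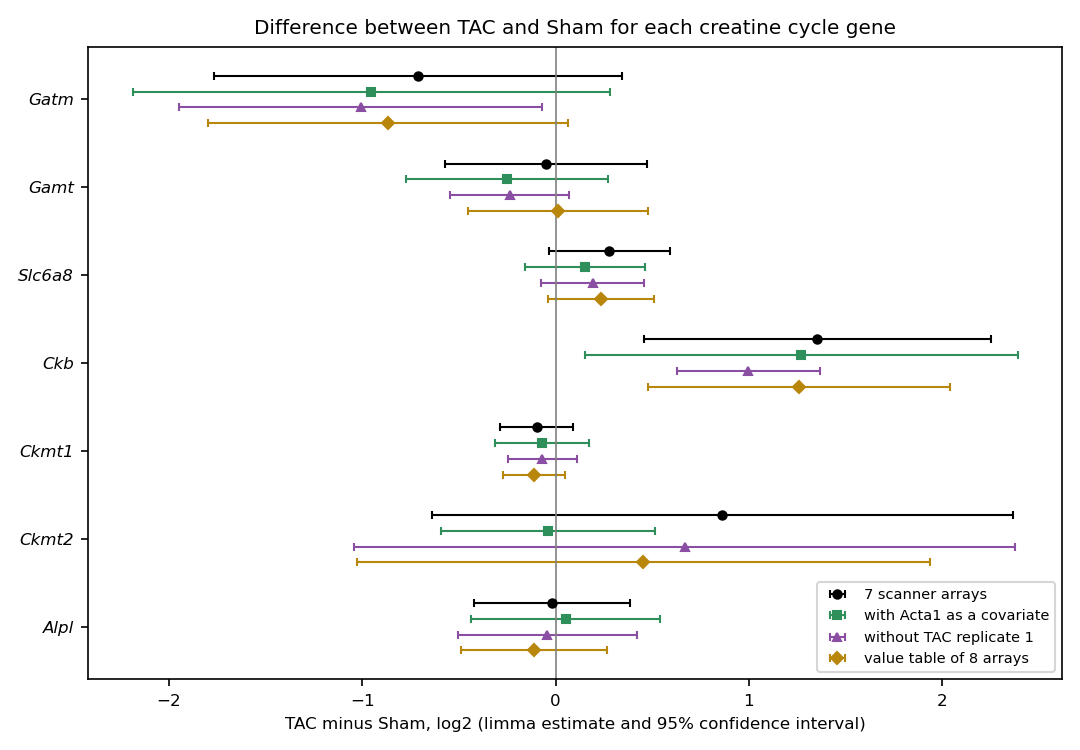
TAC minus Sham difference of each creatine cycle gene on the log2 scale, with the limma 95% confidence interval as a bar, for the 7 scanner arrays (black circles), with Acta1 as a covariate (green squares), without TAC replicate 1 (purple triangles) and for the value table of 8 arrays (gold diamonds). Ckb lies at 1.35, 1.27, 0.997 and 1.26 in that order, and Ckmt2 goes from 0.86 to -0.038 once Acta1 is a covariate.

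The members were then separated by how closely their levels followed Acta1, the actin of skeletal muscle fibres. Acta1 was at 2.42, 4.00 and 3.16 in Sham replicates 2 to 4 and at 5.05, 4.28, 2.47 and 4.96 in TAC replicates 1 to 4. It was low on Sham replicate 2 and TAC replicate 3, and high on TAC replicates 1, 2 and 4. In the value table it was high also on Sham replicate 1, at 4.54, beside 4.46 on TAC replicate 2. The difference for Acta1 was 0.998 (SE 0.68, adjusted p 0.555). The correlations below are over 7 arrays and are given as a description with no p, because they define the separation. The arrays share a slide, and the members share a scaling with Acta1.

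Ckmt2 followed Acta1 with Pearson r = 0.97 and Spearman rho = 0.96, and Slc6a8 did so with r = 0.81 and rho = 0.75. These 2 of 7 members reached an r of 0.7, the level used here, which 3.5% of the tested probes reached. Gamt came next at r = 0.52, well under that level, followed by Ckb at 0.47 and Gatm at 0.026. Alpl was at -0.29 and Ckmt1 at -0.60. The r of Ckmt2 was 0.95 over the 8 arrays of the value table, 0.96 for deviations from the group means and between 0.96 and 0.99 with each array left out, so it was seen within the groups as well as between them. With Ckm, the cytosolic kinase of muscle, in place of Acta1, Ckmt2 had r = 0.98. Ckm itself was higher after TAC by 1.16 (SE 0.68, adjusted p 0.505).

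The place of Slc6a8 and of Ckb depended on how it was measured. Slc6a8 dropped to r = 0.697, just under the level, when the mean of 25 other skeletal muscle genes replaced Acta1, while Ckmt2 stayed at 0.96. Without the 2 arrays farthest from the median of Acta1, TAC replicate 3 and Sham replicate 2, Ckb reached r = 0.75, Ckmt2 0.95 and Slc6a8 0.90. Without TAC replicate 1 the r of Ckb was 0.10, and for deviations from the group means it was 0.15.

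Ckmt2 and Slc6a8 were set apart by their correlation with Acta1, so a smaller difference at equal Acta1 follows from that choice and is given as a description. With the level of Acta1 as a covariate in limma, the difference of Ckmt2 went from 0.86 to -0.038 (SE 0.23, 95% confidence interval -0.59 to 0.52, adjusted p 0.976). That of Slc6a8 went from 0.28 to 0.15 (SE 0.13, adjusted p 0.756). Ckb kept most of its difference, at 1.27 (SE 0.46, 95% confidence interval 0.15 to 2.39, adjusted p 0.480). Gatm was at -0.95 (SE 0.51, adjusted p 0.612), Gamt at -0.25 (SE 0.22), Ckmt1 at -0.072 (SE 0.10) and Alpl at 0.052 (SE 0.20) in the same fit. The Ckb estimate in that fit was 2.41-fold. On TAC replicate 3, with the lowest Acta1 of the TAC arrays, Ckb was 2.27-fold above the Sham mean. The part of skeletal muscle RNA in the difference of Ckb was not tested.

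**Figure D3:**
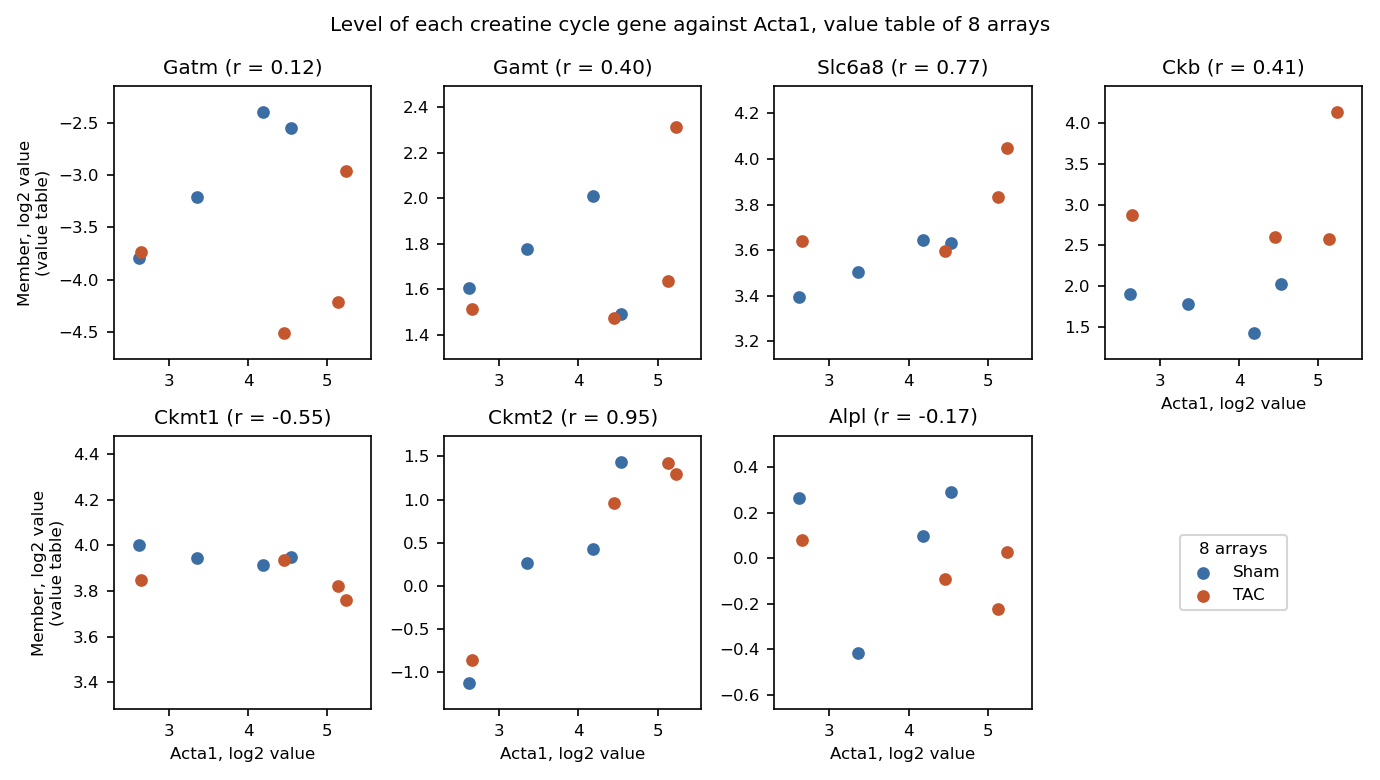
Level of each creatine cycle gene (vertical axes, log2 value from the value table, each panel with its own range) against Acta1 (horizontal axes, same unit) over 4 Sham arrays (blue) and 4 TAC arrays (orange), with Pearson r in each title. Ckmt2 follows Acta1 in both groups (r = 0.95), whereas the TAC points for Ckb lie above the Sham points at low and at high Acta1 (r = 0.41).

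Promoter sequences are shown for Ckb, the member with the largest difference, and for Ckmt2 beside the muscle genes Acta1 and Ckm that it followed. They are from RefSeq, assembly GRCm38.p6, and run 5′ to 3′ from 250 bases before to 50 bases after the start of the gene. Capitals mark the motifs searched on both strands. The first was the E-box CAGCTG, to which myogenic factors bind. Further motifs were the letters of a TATA box, TATAAA, and those of a site for oestrogen-related receptors, AAGGTCA. The last was the CArG box, to which serum response factor binds. No marked match overlaps another.
Ckb, chr12:111672289-111672588, minus strand: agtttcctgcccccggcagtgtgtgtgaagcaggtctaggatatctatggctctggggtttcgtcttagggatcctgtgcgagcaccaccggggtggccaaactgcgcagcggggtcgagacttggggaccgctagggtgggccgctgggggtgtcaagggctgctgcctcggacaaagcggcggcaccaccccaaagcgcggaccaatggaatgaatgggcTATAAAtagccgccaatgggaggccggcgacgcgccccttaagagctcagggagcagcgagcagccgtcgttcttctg
Ckmt2, chr13:91876836-91877135, minus strand: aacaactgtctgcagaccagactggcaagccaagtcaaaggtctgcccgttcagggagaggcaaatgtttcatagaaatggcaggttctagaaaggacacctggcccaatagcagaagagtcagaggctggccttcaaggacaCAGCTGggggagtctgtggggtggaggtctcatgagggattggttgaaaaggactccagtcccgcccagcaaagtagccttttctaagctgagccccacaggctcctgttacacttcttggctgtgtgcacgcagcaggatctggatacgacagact
Acta1, chr8:123894726-123895025, minus strand: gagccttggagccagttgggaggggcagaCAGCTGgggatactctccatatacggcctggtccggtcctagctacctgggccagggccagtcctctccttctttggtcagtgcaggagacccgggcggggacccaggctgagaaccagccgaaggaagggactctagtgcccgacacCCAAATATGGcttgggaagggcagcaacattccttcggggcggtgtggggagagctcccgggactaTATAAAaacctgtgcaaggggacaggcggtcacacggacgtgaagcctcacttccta
Ckm, chr7:19410844-19411143, plus strand: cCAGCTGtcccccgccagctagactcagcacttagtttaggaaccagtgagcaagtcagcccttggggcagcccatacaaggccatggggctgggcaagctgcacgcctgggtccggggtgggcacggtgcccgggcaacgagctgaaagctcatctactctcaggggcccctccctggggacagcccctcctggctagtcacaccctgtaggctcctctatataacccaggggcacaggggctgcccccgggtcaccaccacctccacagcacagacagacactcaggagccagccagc
The Ckb sequence has 1 TATA box and no E-box of these letters, and the sequences of Ckmt2, Acta1 and Ckm have 1 E-box each. Acta1 also has 1 TATA box and 1 CArG box. Among 32851 promoters of the same length, 16.3% hold this E-box, 13.6% the TATA box, 4.72% the receptor site and 1.63% a CArG box, so a match to either of the first motifs is common. The table holds 8 promoters for 6 of the 7 members, of which 3 have the E-box, 3 the TATA box, 1 the receptor site and 0 a CArG box. The receptor site was in a promoter of Ckmt1, chr2:121357526-121357825 on the plus strand, which also has the E-box and the TATA box, while the other Ckmt1 promoter has none of the 4 motifs. The table has no entry for Slc6a8. These matches are letters in a window, and binding was not measured.

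Markers of other cell types differed between the arrays in ways that partly ran with the members. The level of a list on an array is the mean over its tested genes, with the average of the 3 Sham arrays set to 0. The 27 skeletal muscle genes lay between -0.90 and 0.95 in Sham and at 1.23, 0.84, -0.999 and 1.55 in TAC replicates 1 to 4, high and low on the same arrays as Acta1, and 25 of them were higher after TAC, with a median difference of 0.86, where 44.2% of all probes were higher. None of the 27 passed at an adjusted or an unadjusted p under 0.05 in limma in either direction. The part of these genes in the differences of Ckmt2 and Slc6a8 was not tested.

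Of the 15 brown adipocyte genes 13 were lower after TAC, with a median of -0.21 where 55.8% of all probes were lower. The list lay at -1.15 on TAC replicate 1, from -0.47 to -0.047 on TAC replicates 2 to 4 and from -0.15 to 0.17 in Sham. Ucp1 was lower by a log2 difference of -0.61 (SE 0.21, adjusted p 0.336), and Cidea, a lipid droplet protein of brown adipocytes, by -0.11 (SE 0.14).

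Immune markers were high on TAC replicate 1, the array with the highest Ckb. The 10 macrophage genes lay at 0.80 there, from -0.45 to -0.10 on TAC replicates 2 to 4 and from -0.17 to 0.22 in Sham. Neutrophil genes (4 of 8 tested) lay at 1.18 there, from -0.74 to -0.34 on TAC replicates 2 to 4 and from -0.64 to 0.52 in Sham. Lymphocyte genes (5 of 8 tested) lay at 1.12 there, from -0.35 to -0.12 on those 3 TAC arrays and from -0.20 to 0.23 in Sham. Adgre1, the macrophage marker, was well above background on 7 arrays, S100a8, of neutrophils, on 4 and Cd79a, of B cells, on 1. On TAC replicates 2 to 4, where these 3 lists were below the Sham mean, Ckb was 0.90 to 1.18 above it.

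The endothelial list, with Pecam1 well above background on 7 arrays, stayed between -0.16 and 0.084 on all of them. The fibroblast list with Col1a1 lay at 0.49 on TAC replicate 1 and between -0.30 and 0.16 elsewhere, and the smooth muscle list with Acta2 at 0.69 on TAC replicate 3 and between -0.072 and 0.27 elsewhere. The erythroid list with Hbb-b1 lay between -0.58 and 0.18 in TAC and between -0.30 and 0.55 in Sham. The part of these cell types in the difference of Ckb was not tested.

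**Figure D4:**
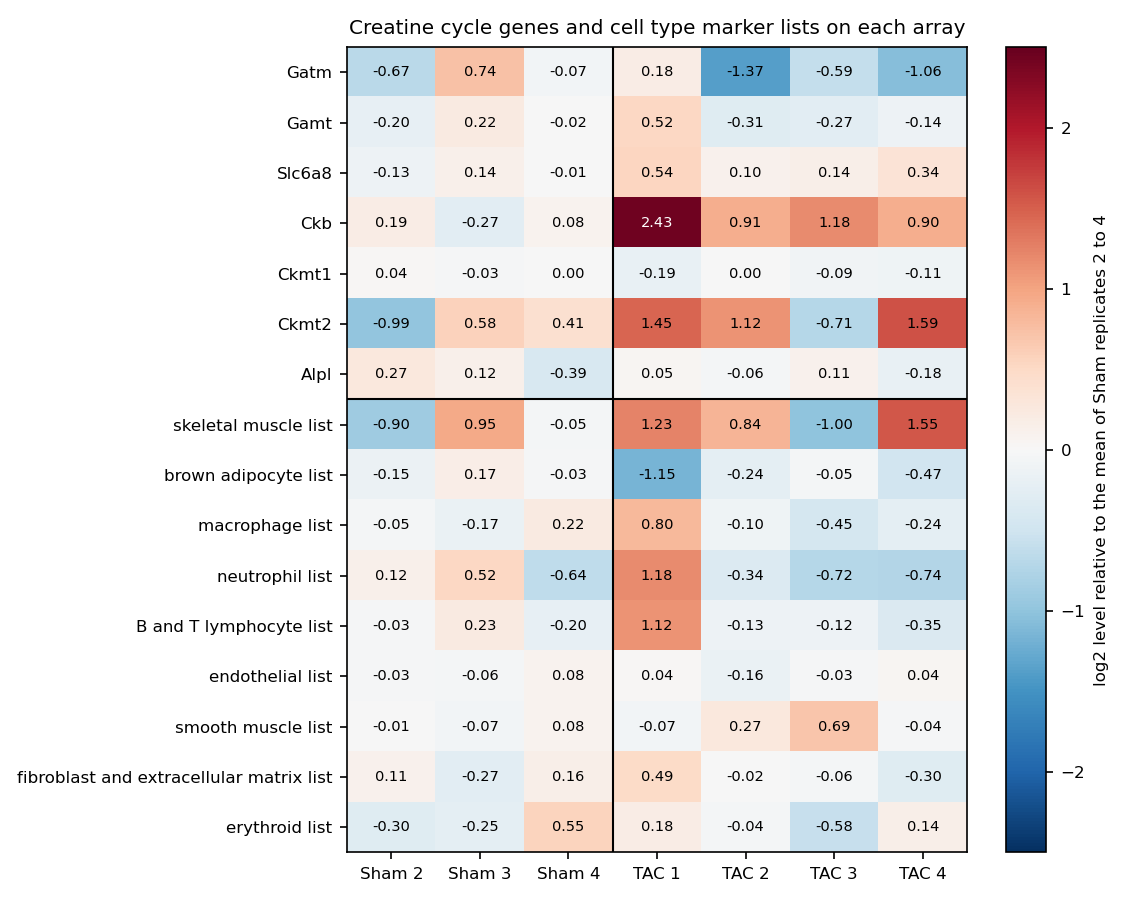
Log2 level of the 7 creatine cycle genes (upper block) and mean of 9 cell type marker lists (lower block) on each of 7 arrays, with the average of the 3 Sham arrays set to 0, blue for lower, red for higher and the value in each cell. Ckb is at 0.90 to 2.43 on all 4 TAC arrays, Ckmt2 and the skeletal muscle list are high on TAC replicates 1, 2 and 4 and low on TAC replicate 3, and the immune lists are high on TAC replicate 1.

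The lists of genes around the creatine cycle differed from each other in direction. Among 14 genes of phosphotransfer and adenine nucleotide exchange, which pass high-energy phosphate between mitochondria and cytosol, 10 were lower after TAC and 4 higher, with a median of -0.13 beside -0.032 over all probes. None passed the adjusted threshold in limma. At an unadjusted p under 0.05 there were 5 lower, or 35.7%, against 8.43% of all probes, and 4 lower without TAC replicate 1. The TAC arrays lay below all Sham arrays for 7 of the 14, against 10.5% of all probes, and for 4 of 14 in the value table of 8 arrays, against 6.29%. The list was chosen with earlier results of these data known, so these shares are a description.

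The clearest case was Slc25a3, the mitochondrial carrier of phosphate. It was at 4.82, 5.12 and 5.10 in Sham replicates 2 to 4 and at 4.14, 4.59, 4.48 and 4.46 in TAC replicates 1 to 4, with no overlap. The difference was -0.60 (SE 0.14, adjusted p 0.206), and -0.50 without TAC replicate 1. Slc25a5, a carrier that exchanges ADP for ATP, was lower by a log2 difference of -0.30 (SE 0.075, adjusted p 0.227), though its groups overlapped once Sham replicate 1 was added. Nme4, a mitochondrial nucleoside diphosphate kinase, was lower by -0.39 (SE 0.11, adjusted p 0.285), with no overlap over 7 or 8 arrays.

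The supply of substrates for creatine synthesis was measured by 10 of 15 listed genes, because 5 were too dim to test. Of these, 8 were higher and 2 lower, with a median of 0.14, where 44.2% of all probes were higher. None passed at an adjusted or an unadjusted p under 0.05 in limma. The mean of the list on an array lay between -0.060 and 0.032 in Sham and between 0.060 and 0.12 in TAC. The smallest p belonged to Shmt1, which makes glycine from serine, at 0.31 (SE 0.15, adjusted p 0.446), Oat, an ornithine aminotransferase, at 0.20 (SE 0.11, adjusted p 0.486), and Gnmt, a glycine methyltransferase, at -0.38 (SE 0.23, adjusted p 0.516). Their groups all overlapped.

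Among 8 transporters of creatine, its precursors and related solutes 4 were higher and 4 lower, with a median of 0.036 that moved to 0.13 without TAC replicate 1. Slc6a12, a betaine carrier, was higher by 0.41 (SE 0.16, adjusted p 0.356), without overlap on 7 arrays and with overlap once Sham replicate 1 was added. Slc25a15, the mitochondrial ornithine carrier, had a difference of -0.49 (SE 0.23, adjusted p 0.434). Its groups overlapped on 7 arrays and not in the value table of 8, where 6.29% of all probes were lower without overlap. Slc7a1, a carrier of arginine, had a difference of 0.39 (SE 0.22, adjusted p 0.485), with overlap in both. Of the phosphatases listed beside Alpl 4 of 8 were tested, 2 higher and 2 lower. Acp1 was at -0.21 (SE 0.11, adjusted p 0.461), with overlap on 7 arrays and without overlap in the value table of 8. Phospho1, which acts with Alpl in bone, was at 0.12 (SE 0.12) and Phospho2 at -0.080 (SE 0.087).

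For each member the 3 genes with the most similar pattern over 7 arrays were sought among all tested probes with another symbol. With so few arrays, high values of r arise for many of the probes, and the values are descriptions. Those for Ckmt2 were Mybpc1 (r = 0.997), a myosin-binding protein of skeletal muscle, Rpl3l (0.99), a ribosomal protein of striated muscle, and Scn4b (0.99), a sodium channel subunit. Those for Ckb were Myo1e (0.99), an unconventional myosin, Cmpk2 (0.99), a mitochondrial nucleotide kinase, and Apba1 (0.99), with log2 differences of 0.80 (SE 0.25), 0.83 (SE 0.26) and 0.37 (SE 0.14) and adjusted p between 0.296 and 0.348.

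Slc6a8 was most like Cmtm2a (0.99), Mrtfa (0.98), a coactivator of serum response factor, and Cpe (0.98), a carboxypeptidase of hormone processing. Gatm was most like Kmt2d (0.99), Asf1b (0.98) and Hpdl (0.97). Gamt was most like Sptlc2 (0.98), a subunit of the enzyme that starts sphingolipid synthesis, H2-K1 (0.98), a class I histocompatibility antigen, and Cep295 (0.98). Ckmt1 was most like Commd9 (0.99), Lrig3 (0.99) and Sh3bgrl (0.98), and Alpl like Zdhhc3 (0.97), Eri2 (0.95) and Tbc1d4 (0.95). No muscle structural gene was among the 3 nearest of Slc6a8, Ckb, Ckmt1, Gamt, Gatm or Alpl. The 3 nearest genes alone do not show whether a member followed muscle, as Slc6a8 had r = 0.81 with Acta1.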

How the data were processed

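RNA of BAT was hybridized to one-colour arrays, 1 per mouse. The deposited scanner values are background-subtracted intensities of each spot, extracted with Agilent Feature Extraction 10.7.1.1 per the submitters' processing notes, and those of 7 arrays were used here. A further deposited table gives 1 intensity per probe for the 8 arrays. By its values this is the scanner intensity divided by a constant of its array, with a 75th percentile of 1.002 to 1.004.

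Outlier spots (134 to 191 per array) were left out, intensities were converted to log2, the 75th percentile of the array was subtracted and spots of 1 probe were averaged. Tested were the probes well above background on 3 or more of 7 arrays, with values on 2 or more arrays per group. Groups were compared by limma 3.58.1 (R 4.3.3) and p-values were adjusted by the Benjamini-Hochberg method over 33364 probes. The procedure was tested on simulated data. All adjusted p-values are limma's. The number of arrays limits the precision, and p-values measure the spread between these mice. Symbols came from the RefSeq gene table of GRCm38.p6 by accession and named 50.3% of the probes. The array was designed on another assembly, so coordinates are given for the RefSeq promoters only. The brightest probe stands for a gene.

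The members and lists were chosen with earlier results of these data known, so their shares beside those of all probes are descriptions. Named genes were the members, Acta1, the 3 genes of each pathway list with the smallest p, defining markers of the cell types and the 3 genes most like each member. Ckm, Ucp1 and Cidea are among those markers. The results of 1 marker list are not reported here. Alternatives were other background corrections, scalings, filters, variance models and tests, the value table, Acta1 as a covariate, blocks by replicate number, and leaving out each array. The value table without TAC replicate 1 was chosen after seeing the data.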

Additional observations from a re-analysis of the deposited data

Results flagged for a closer look

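The B and T lymphocyte list lay at 1.12 above the Sham mean (log2) on TAC replicate 1, where the other TAC arrays lay between -0.35 and -0.12. The gap to the nearest of them was 0.843 of the range of the group, above Dixon's 95% critical value for 4 samples. It was the single lone array among 41 groups of 4 arrays looked at, and chance gives about 1 in 20. No group of 4 arrays of a creatine cycle gene met this criterion.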

How the results depend on the processing

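Over 160 alternatives for the 7 members, 11 changed the sign of a difference and none passed the adjusted threshold. Gatm, Slc6a8, Ckb and Ckmt1 kept their sign in all that were run. Gamt turned to 0.013 in the value table of 8 arrays and ranged from -0.24 to 0.061 over the arrays left out in turn (above 0 without Sham replicate 3, TAC replicate 2 or TAC replicate 3). Ckmt2 was at -0.038 with Acta1 as a covariate and from 0.37 to 1.39 over the arrays left out. Alpl was at 0.037 with array weights, at 0.052 with Acta1 as a covariate and from -0.22 to 0.12 over the arrays left out (above 0 without Sham replicate 2, Sham replicate 3 or TAC replicate 4). The cause was not tested. Over all probes, 1 was called lower under normexp, median centring and array weights each, and without TAC replicate 4 limma called 7 higher and 1 lower, where leaving out other arrays called 0. With the skeletal muscle list in place of Acta1, 1 member reached r of 0.7. Under the filter that asks for every array Gatm, whose signal was not well above background on 1 array, gave no value. Same-numbered arrays deviated together with r between -0.026 and 0.0017 in the scanner values and between 0.020 and 0.27 in the value table, so the numbers were not taken to pair them. The fit of the scanner values with the number as a block left out TAC replicate 1, which has no Sham array of its number there. In it Ckb was at 0.997 and Gatm at -1.01 (95% confidence interval -1.42 to -0.59, adjusted p 0.384). These are the estimates of the fit without TAC replicate 1 and without a block. With the block over the 8 arrays of the value table, Ckb was at 1.26 and Gamt at 0.013. Gatm was at -0.87 there (95% confidence interval -1.29 to -0.44, adjusted p 0.217). No probe was called with either block.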
